A study of Mus musculus with 6 samples.

Results

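The genes described here are the transcription factor NRF2 (gene: Nfe2l2), its inhibitor KEAP1 and the enzymes that remove superoxide, peroxide and electrophiles or supply the glutathione, thioredoxin and NADPH that this removal consumes. They were chosen by gene symbol, which the deposited annotation joins to the count table through the gene ID, and make up 40 of the 54532 genes there, in 5 classes. All 40 were found and passed the filter on low counts. Their counts came from wild type mouse bone marrow mesenchymal stem cells (mBMSCs, adherent marrow cells that can form osteoblasts) kept for 7 days in osteogenic medium with dexamethasone, ascorbic acid and β-glycerophosphate. The control group (Con, 3 libraries, vehicle without nickel) and the Ni group (3 libraries, 0.1 μM nickel ion) shared that medium, and each library was labelled as an independent replicate of its group. Strain, age and sex of the donor mice and pooling of animals are not given in the sources used here.

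NRF2 is held in the cytoplasm and sent to degradation by KEAP1, which carries reactive cysteines. When these are modified by oxidants, electrophiles or some metals, NRF2 escapes, pairs with a small MAF protein and binds the antioxidant response element (ARE) in front of genes such as Nqo1, Gclm, Txnrd1 and Srxn1. Peroxide also arises in the endoplasmic reticulum, where secretory cells such as osteoblasts form the disulfides of their proteins. The study used high nickel doses to provoke oxidative stress and a low dose to promote mineralization, so the comparison asks whether the antioxidant genes differed at the low dose.

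The totals ranged from 16101033 to 18642504 counts per library, and the 40 genes together took from 0.614% to 0.654% of them. A level is given as CPM (counts scaled to a common library size, TMM-normalized) for comparing libraries and as the deposited FPKM (per kilobase of gene length) for comparing genes. That length counts annotated exon bases, such as 3970 for Sod1 and 10008 for Sod2, and not the length of the main transcript. For Gstp1 it was 757, against 1548 exon bases in GENCODE M21. Ranks and shares of FPKM between genes therefore depend on the annotation. The cultures held abundant macrophage transcripts, with a summed level of 14 macrophage markers from 26228 to 31170 CPM. The 10 stromal markers summed to between 8143 and 18129 CPM, but Thy1, a usual marker of mesenchymal stromal cells, lay between 0.874 and 1.44 CPM. Control replicate 3 stood nearer to the Ni libraries than to the other controls, at a mean Pearson's r across genes of 0.987 with the Ni libraries and 0.978 with the other controls. In bulk RNA, fewer cells of a type and less RNA per cell cannot be told apart.

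The 9 bases TGACNNNGC are the core of the ARE, and they are shown first because they are the sequence that NRF2 binds. The window searched ran from 250 bases before to 50 bases after each start site in RefSeq (GRCm38.p6), on both strands. Of the 35 genes of the list with a window, 10 held the core (28.6%), against 14.0% of the 27025 RefSeq genes with a window. The core also contains the AP-1 element when its middle bases read TCA, as in Prdx1 and Me1. The matches with their flanks are as follows, the core in capitals, read 5′ to 3′ along the strand that carries it. Me1 and Prdx1 held the same 9 bases, and Gclm, Txnrd1, G6pdx and Sod1 held others.
Prdx1 (chr4:116685456-116685484, minus strand): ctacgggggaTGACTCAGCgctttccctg
Me1 (chr9:86695902-86695930, minus strand): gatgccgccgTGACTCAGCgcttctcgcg
Gclm (chr3:122245413-122245441, minus strand): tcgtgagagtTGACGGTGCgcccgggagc
Txnrd1 (chr10:82859104-82859132, minus strand): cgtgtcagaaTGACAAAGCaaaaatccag
G6pdx (chrX:74428919-74428947, plus strand): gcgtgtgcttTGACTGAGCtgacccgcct
Sod1 (chr16:90220696-90220724, minus strand): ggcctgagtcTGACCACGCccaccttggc
A match is a run of letters and not a bound site. Nfe2l2, Mgst1, Pgd and Srxn1 were the other genes with a match. No match was found for Nqo1 in this window, and Gclc, Gsr, Gsta4, Prdx6 and Sod3 had no entry.

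Across the 40 genes the median log2 fold change (Ni minus control) was 0.00, with 21 genes above 0 and 19 below, beside a median of -0.01 over all 14624 genes tested. The range ran from -0.51 for Sod2 to 0.69 for Me1, and no gene of the list reached a change of 1 in either direction. No gene passed an adjusted p of 0.05 in the quasi-likelihood test of edgeR (Benjamini-Hochberg adjustment over all genes), which called 0% of all genes tested. At an unadjusted p under 0.05 there were 9 of 40 (22.5%) against 13.4% of all genes tested. Of these, Me1, Gpx7, Mgst3, Gstm2 and Gpx8 were higher with Ni (background 7.59%), and Sod2, Sod1, Gsr and G6pdx were lower (background 5.83%). The 3 Ni libraries lay wholly outside the range of the 3 controls for 10 genes (25%), as for 14.7% of all genes tested. Of the 10, 3 were higher with Ni (background 7.97%) and 7 lower (background 6.71%). With 3 libraries against 3, an exact two-sided permutation test of a single gene cannot give a p below 0.1.

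**Figure D1:**
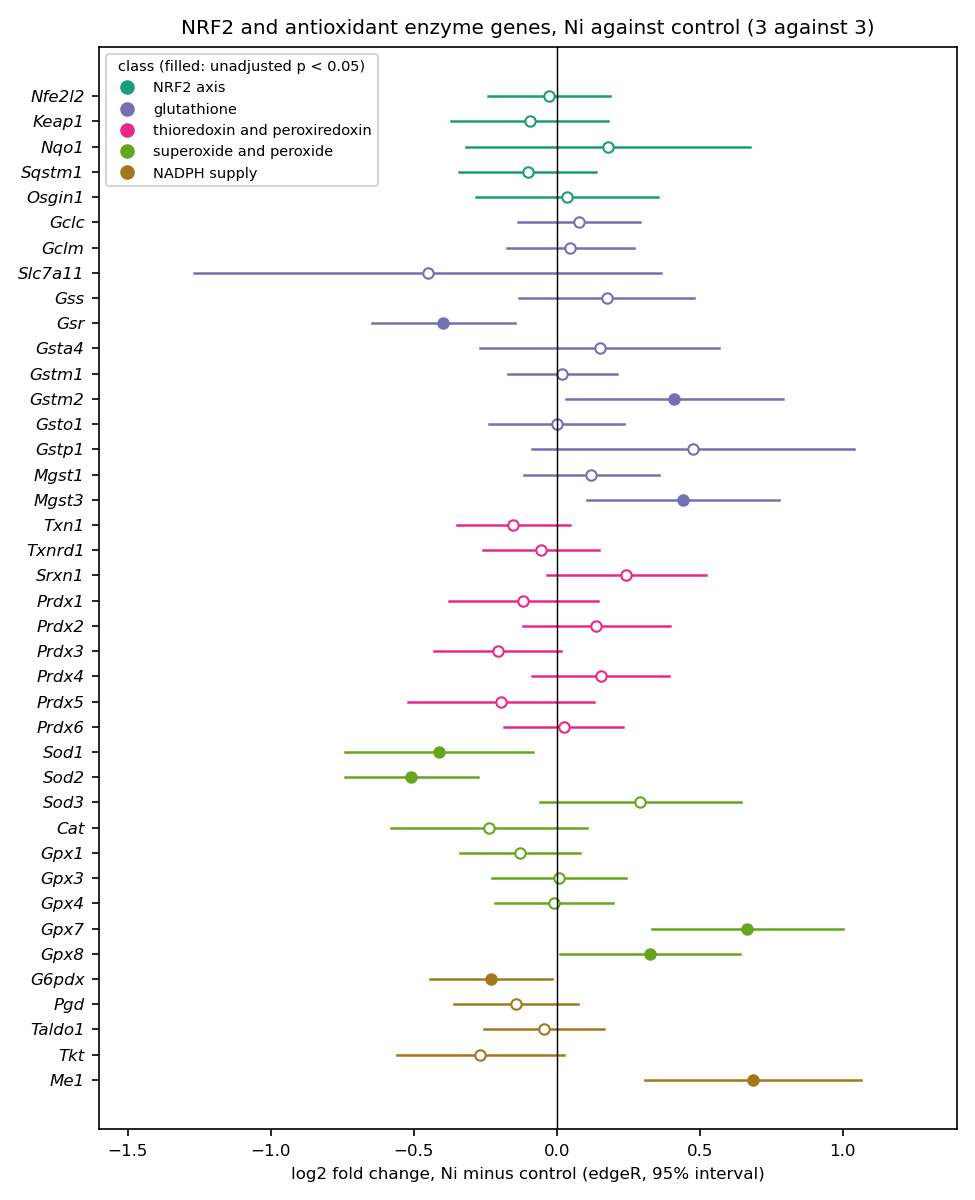
The log2 fold change of each of the 40 genes (x axis, Ni minus control) with its 95% interval from the edgeR fit, ordered and coloured by class. The 9 filled points had an unadjusted p under 0.05, and the NRF2 axis and thioredoxin classes hold none of them.

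Control replicate 3 weighed on these counts. It lay nearer to the Ni mean than to the mean of the other controls for 33 of the 40 genes (82.5%), as it did for 67.5% of all genes tested. Without it, 12 of the 40 (30.0%) passed an adjusted p of 0.05 in edgeR, against 15.2% of all genes. These were Gpx7, Me1, Gstm2, Sod3, Gpx8, Srxn1 and Mgst3 on the higher side (background 8.69%) and Sod2, Sod1, Gsr, Tkt and Cat on the lower side (background 6.49%). Leaving out any other library gave 0 genes of the list at that threshold. At an unadjusted p under 0.05 the count was 17 without control replicate 3 (background 27.4%). It was 5 without control replicate 1 (background 6.27%), control replicate 2 (background 5.79%) or Ni replicate 3 (background 6.96%). The groups did not overlap for 25 genes without control replicate 3 (background 43.1%) and for 17 without Ni replicate 2 (background 35.1%). With all 6 libraries, the adjusted threshold was passed by 3 of the 40 in DESeq2 (Gpx7, Me1 and Sod2) against 1.79% of all genes, by 7 in edgeR with no filter on low counts against 3.97%, and by 4 with the replicate number as a block against 2.15%. Gpx7, Me1, Gsr and Sod2 were among the genes at that unadjusted threshold in every one of the 6 fits that left out a library. The share of all genes that stayed there in all 6 fits was not counted, and these fits share most of their libraries.

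The NRF2 axis did not separate the groups. Nfe2l2 (ENSMUSG00000015839, chromosome 2, 75675513 to 75704641 in GRCm38, as for all positions here) encodes NRF2 itself. It had 205, 195 and 197 CPM in the controls and 199, 180 and 208 CPM in the Ni libraries. All 6 values overlapped, and the log2 fold change was -0.03 with a 95% interval from -0.24 to 0.19 (adjusted p = 0.936). Keap1, the inhibitor, had 48.7, 54.9 and 49.2 CPM in the controls and 46.0, 55.6 and 41.4 CPM with Ni, a log2 fold change of -0.09 (95% interval -0.37 to 0.18). Nqo1, a quinone reductase often read as the marker of NRF2 activity, had 3.77, 4.22 and 4.98 CPM in the controls and 4.51, 5.87 and 4.31 CPM with Ni. The groups overlapped (log2 fold change 0.18, 95% interval -0.32 to 0.68). The gene was low, at 2.76 ± 0.385 FPKM in controls and 3.13 ± 0.531 FPKM with Ni (SD, n = 3). Only Slc7a11 was lower per gene length among the 40. Sqstm1, the p62 adaptor that draws KEAP1 into autophagy, and Osgin1, a growth-inhibitory NRF2 target, had log2 fold changes of -0.10 and 0.04. For all 5 genes the interval included 0 and its bounds stayed within 0.68 of it.

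The glutathione synthesis genes overlapped between the groups as well. Gclc, the catalytic subunit of the rate-limiting ligase, had 45.6, 44.2 and 48.2 CPM in controls and 49.3, 50.9 and 45.5 CPM with Ni (log2 fold change 0.08, 95% interval -0.14 to 0.29). Gclm, its modifier subunit, lay between 88.1 and 96.0 CPM in controls and between 84.0 and 100.2 CPM with Ni (0.05, -0.17 to 0.27). Gss, which completes the tripeptide, had a log2 fold change of 0.17 (-0.13 to 0.48). Slc7a11, the cystine importer that feeds the pathway, was the least abundant gene of the list, with 283 counts over the 6 libraries. It had 2.08, 2.27 and 5.10 CPM in the controls and 2.39, 2.01 and 2.49 CPM with Ni. Control replicate 3 alone stood high, and the log2 fold change of -0.45 (-1.27 to 0.37) became 0.09 without it.

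Gsr, glutathione reductase, which spends NADPH to regenerate reduced glutathione, was lower in every Ni library. It lies on chromosome 8 from 33652523 to 33698163 (ENSMUSG00000031584). The controls had 86.2, 86.5 and 69.9 CPM and the Ni libraries 64.1, 64.1 and 56.1 CPM, below every control. The log2 fold change was -0.40 (standard error, SE, of 0.11, adjusted p = 0.283 in edgeR), a level of 0.76 of the controls. With any single library left out it lay from -0.49 to -0.33.

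The 7 glutathione transferases of the list, which couple glutathione to electrophiles, had values at or above 0. Gsto1 was at 0.00, and the other 6 ran from 0.02 for Gstm1 to 0.48 for Gstp1, with Mgst1 at 0.12 and Gsta4 at 0.15. Mgst3 (chromosome 1, 167371966 to 167393841), a membrane-bound transferase and peroxidase, had 10.5, 12.2 and 14.8 CPM in controls and 16.8, 17.6 and 16.5 CPM with Ni. Its groups did not overlap, alone among these 7, with a log2 fold change of 0.44 (SE 0.15, adjusted p = 0.311). Gstm2 (chromosome 3, 107981702 to 107986453) had 31.1, 26.2 and 42.6 CPM in controls and 40.3, 43.5 and 49.1 CPM with Ni (log2 fold change 0.41, SE 0.17, adjusted p = 0.351). That value was 0.27 without control replicate 2 and 0.63 without control replicate 3. Its neighbour in the cluster on chromosome 3, Gstm1, held between 67.9 and 72.3 CPM in all 6 libraries (0.02, 95% interval -0.17 to 0.21). Gstp1 ranged from 14.8 to 30.0 CPM in the controls. Its value lay from 0.23 to 0.70 with one library left out, highest without control replicate 3. It shares 33.7% of its 50-base stretches with Gstp2, which took 6 counts against 2935 for Gstp1, so the split of reads between them is uncertain. Of the transferases outside the 40, Gstm4 was lower in every Ni library (-0.35, 95% interval -0.73 to 0.04). Gstm5 (0.35, 0.05 to 0.65) and Gstz1 (0.12, -0.11 to 0.35) were higher in every one. The groups did not overlap for 5 of the 45 genes tested in their list of further redox and detoxification genes, against 14.7% of all genes tested.

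Thioredoxin and peroxiredoxin genes showed small differences. Txn1 encodes thioredoxin, a small disulfide reductase. It had 137, 137 and 148 CPM in the controls and 122, 127 and 130 CPM with Ni, which did not overlap, yet the difference was small (log2 fold change -0.15, 95% interval -0.35 to 0.05). Txnrd1, the selenoprotein that reduces thioredoxin, lay between 143 and 159 CPM in controls and between 139 and 151 CPM with Ni (-0.06, -0.26 to 0.15). Srxn1, sulfiredoxin, which rescues over-oxidized peroxiredoxins, had 30.6, 33.5 and 41.5 CPM in the controls and 39.7, 41.8 and 43.4 CPM with Ni. There, control replicate 3 lay among the Ni libraries and the other controls below them (0.24, 95% interval -0.03 to 0.52). Without control replicate 3 its log2 fold change was 0.38. The 6 peroxiredoxins, which reduce peroxides in cytosol, mitochondria and endoplasmic reticulum, ran from -0.21 for the mitochondrial Prdx3 to 0.15 for the endoplasmic reticulum enzyme Prdx4, with Prdx5 at -0.19, Prdx6 at 0.02 and Prdx2 at 0.14. None of the 9 genes of this class had an unadjusted p under 0.05.

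**Figure D2:**
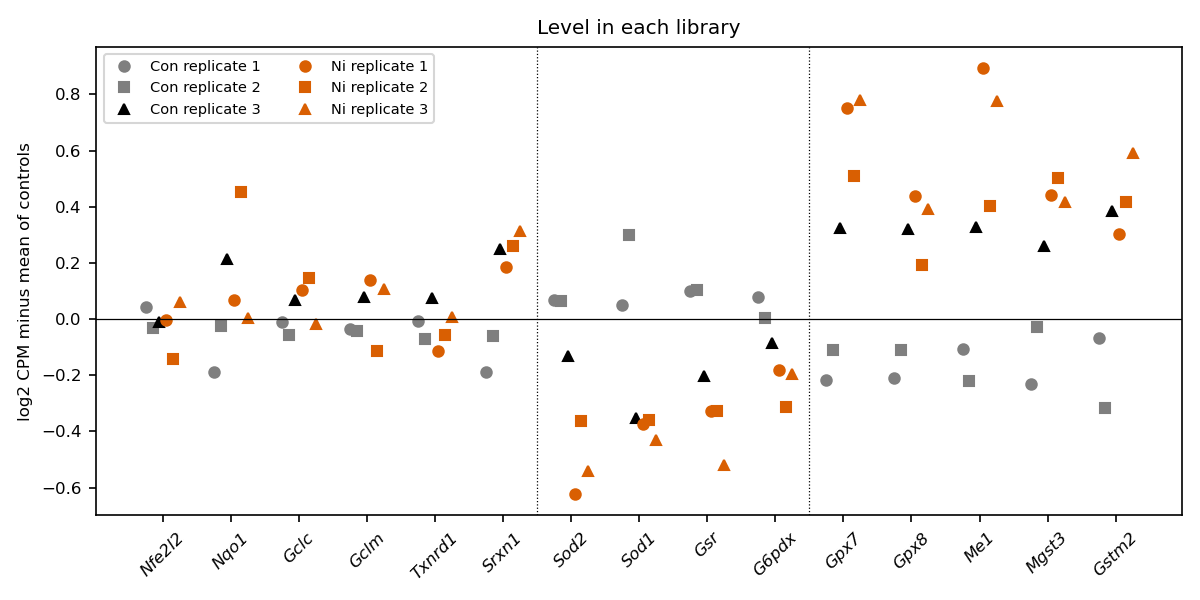
The log2 CPM of 15 genes in each library minus the mean of the 3 controls (y axis), with controls in grey or black and Ni libraries in orange. From left to right are NRF2 and targets of it, the 4 genes lower at an unadjusted p under 0.05 and the 5 higher, and control replicate 3 (black triangle) lies towards the Ni libraries for most of the last 9 genes.

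The superoxide dismutases had values of opposite sign. Sod2 (ENSMUSG00000006818, chromosome 17, 13006846 to 13040063) encodes the mitochondrial manganese enzyme. It had 150, 149 and 131 CPM in the controls and 92.8, 111 and 98.3 CPM in the Ni libraries, with a clear gap between the groups. The log2 fold change was -0.51 (SE 0.10, adjusted p = 0.208), a level of 0.70 of the controls and the lowest value of the list. With any single library left out it lay from -0.58 to -0.45.

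Sod1 (chromosome 16, 90220754 to 90226329), the cytosolic copper and zinc enzyme, had 120, 143 and 90.9 CPM in controls and 89.5, 90.5 and 86.1 CPM with Ni. Every Ni library was below every control, but control replicate 3 missed the Ni range by little, and the log2 fold change of -0.41 (SE 0.15, adjusted p = 0.323) lay from -0.56 to -0.25 with one library left out. Sod3, the secreted enzyme of the extracellular matrix, had 214, 212 and 317 CPM in controls and 322, 305 and 283 CPM with Ni. Control replicate 3 lay inside the Ni range (log2 fold change 0.29, 95% interval -0.06 to 0.64). The value was 0.52 without that library and 0.19 without control replicate 2. Of the summed FPKM of the 3 genes, Sod3 made up 55.9%, 52.7% and 70.2% in the controls and 73.0%, 70.7% and 70.6% with Ni. The share of Sod2 was 13.1% ± 2.02 in controls and 8.88% ± 0.905 with Ni (SD, n = 3), without overlap.

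Catalase and the abundant glutathione peroxidases had intervals that included 0. Cat, which breaks down peroxide in peroxisomes, had 449, 496 and 329 CPM in the controls and 389, 322 and 370 CPM with Ni, so control replicate 3 again fell among the Ni values (log2 fold change -0.24, 95% interval -0.58 to 0.11). It was -0.39 without that library and -0.11 without control replicate 2. Gpx3, the secreted peroxidase, was the most abundant of the 40 genes per gene length, at 474 ± 22.3 FPKM in controls and 477 ± 14.3 FPKM with Ni (SD, n = 3). Its log2 fold change was 0.01, with an interval from -0.23 to 0.24. Gpx1, in cytosol and mitochondria, had 315, 329 and 304 CPM in controls and 295, 280 and 293 CPM with Ni, which did not overlap (-0.13, 95% interval -0.34 to 0.08). Gpx4, which protects membrane lipids from peroxidation and so blocks ferroptosis, had a log2 fold change of -0.01. Of its 50-base stretches 34.7% are shared with other genes, chiefly the pseudogene Gpx4-ps2, which took 3580 counts against 21305 for Gpx4.

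Gpx7 and Gpx8, the peroxidases of the endoplasmic reticulum, had the highest values of the family. These enzymes lack selenocysteine and pass oxidizing equivalents from peroxide to protein disulfide isomerases during protein folding. Gpx7 (ENSMUSG00000028597, chromosome 4, 108400390 to 108406961) had 24.5, 26.4 and 35.7 CPM in controls and 47.9, 40.6 and 48.9 CPM with Ni, all above the controls. The log2 fold change was 0.67 (SE 0.15, adjusted p = 0.212), a 1.59-fold level, and from 0.56 to 0.85 with one library left out. Gpx8 (chromosome 13, 113042753 to 113046410) had 52.0, 55.8 and 75.1 CPM in controls and 81.5, 68.8 and 79.0 CPM with Ni. Ni replicate 2 lay below control replicate 3, and the log2 fold change was 0.33 (SE 0.14, adjusted p = 0.367), or 0.51 without control replicate 3. Together they made up 8.05%, 8.07% and 10.8% of the summed glutathione peroxidase FPKM in controls and 12.3%, 10.99% and 12.6% with Ni.

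**Figure D3:**
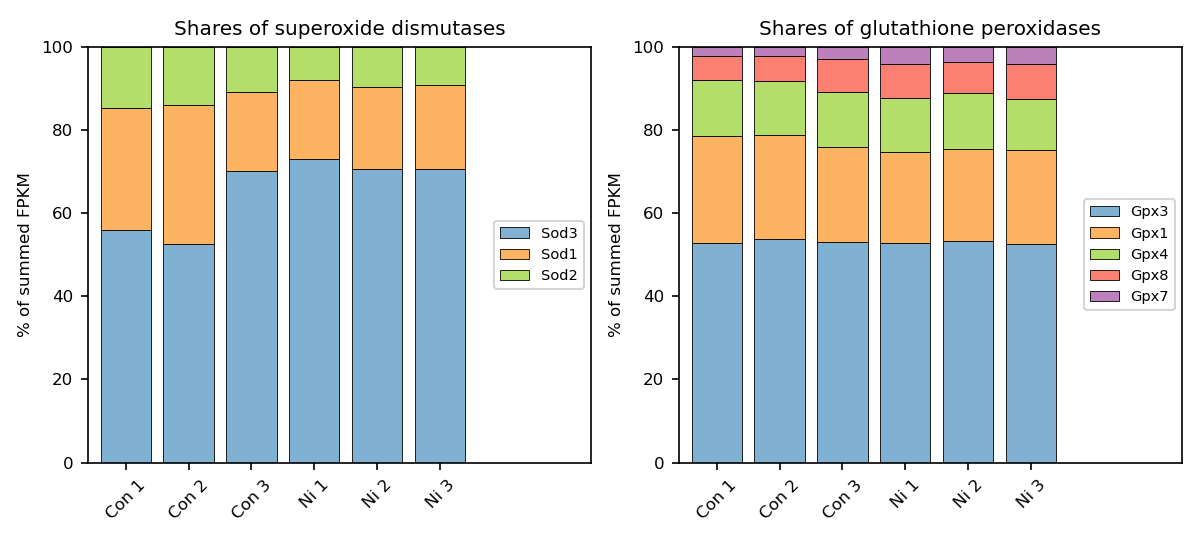
The share of each gene in the summed FPKM (y axis, percent) of the superoxide dismutases and of the glutathione peroxidases in each library. Sod3 takes from 52.7% to 73.0% of its family, and Gpx3 between 52.6% and 53.9% of its own in all 6 libraries.

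Of the 5 genes for NADPH supply, Me1 was above 0 and the others below. In the pentose phosphate pathway, G6pdx (chromosome X, 74409483 to 74429194), the entry enzyme, had 222, 210.5 and 198 CPM in the controls and 185, 169 and 183 CPM with Ni, without overlap. Its log2 fold change was -0.23 (SE 0.10, adjusted p = 0.353). Of its 50-base stretches 16.9% are shared with other genes, chiefly Ikbkg, which took 7810 counts against 20361 for G6pdx. Pgd, the next NADPH-forming step, had 400, 423 and 381 CPM in controls and 367, 370 and 353 CPM with Ni, also without overlap (-0.14, 95% interval -0.36 to 0.07). Tkt and Taldo1, of the non-oxidative branch, had log2 fold changes of -0.27 and -0.04. Further genes of the pathway, outside the 40, lay near 0, with Rpia at 0.00, Pgls at 0.03, Rpe at 0.04 and H6pd at 0.08.

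Me1, malic enzyme, makes NADPH from malate in the cytosol and is best known from lipid synthesis. It lies on chromosome 9 from 86581371 to 86695953 (ENSMUSG00000032418). It had 49.5, 45.8 and 66.9 CPM in controls and 99.1, 70.5 and 91.5 CPM with Ni, all above the controls, though Ni replicate 2 was close to control replicate 3. The log2 fold change was 0.69 (SE 0.17, adjusted p = 0.249), a 1.61-fold level and the highest of the 40. Of its 50-base stretches 28.3% are shared with other genes, of which Gm7049 took 141 counts against 7455 for Me1. The FPKM of Me1 was 0.179, 0.174 and 0.271 of that of G6pdx in the controls and 0.428, 0.334 and 0.400 of it with Ni. Prdx1, which holds the same ARE core as Me1, had 637, 586 and 623 CPM in controls and 610, 492 and 600 CPM with Ni (log2 fold change -0.12, 95% interval -0.38 to 0.14).

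**Figure D4:**
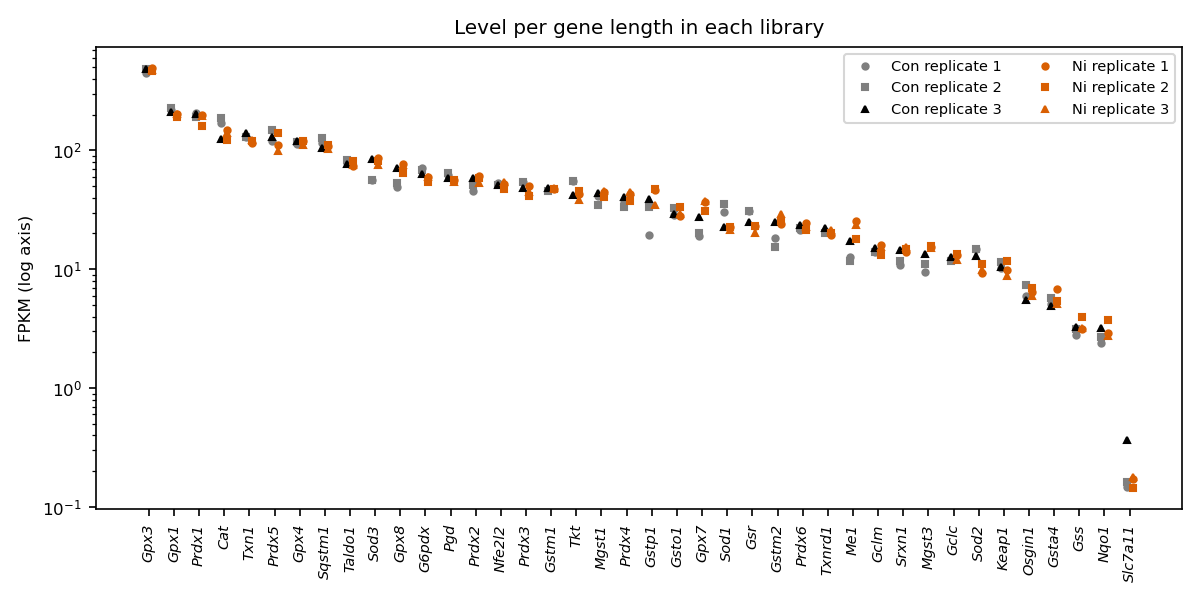
The deposited FPKM (y axis, log scale) of the 40 genes in each library, from the most abundant, Gpx3, to the least, Slc7a11. Controls are grey or black and Ni libraries orange, and most genes show all 6 libraries close together.

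Of 12 NRF2 partners and regulators tested, with a median log2 fold change of -0.06, 1 had an unadjusted p under 0.05 (background 13.4%). That gene was Tfe3, a transcription factor of lysosomal genes, at -0.32 (adjusted p = 0.356 in edgeR). Of 50 further redox and detoxification genes 45 were tested, with a median of 0.00, and 4 were higher (background 7.59%) and 5 lower (background 5.83%) at that threshold. Those with the largest differences were Chac1 at 0.67, Ephx1 at 0.65, Blvrb at -0.47, Abcc4 at -0.37 and Ugdh at 0.36. Hmox1, heme oxygenase, is a classic NRF2 target. The study followed its response to high nickel by qPCR over time, a different assay and dose from these libraries. Hmox1 had 313, 315 and 326 CPM in controls and 320, 322 and 301 CPM with Ni. The 6 values overlapped, with a log2 fold change of -0.02 and a 95% interval from -0.23 to 0.19 (adjusted p = 0.957 in edgeR). Txnip, the thioredoxin inhibitor, was at -0.13 (95% interval -0.38 to 0.12).

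Of 15 oxidant-producing enzymes 11 were tested, with a median of -0.07. Of these, 4 were positive and 7 negative. The groups overlapped for all 11, whereas they did not for 14.7% of all genes tested. Nos2, inducible nitric oxide synthase, had 1.91, 1.32 and 6.18 CPM in the controls and 5.97, 4.03 and 5.86 CPM with Ni. Control replicate 3 was the highest of all 6 libraries, and the log2 fold change of 0.75 (95% interval -0.42 to 1.93) was 1.70 without it.

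Cell type markers differed between the groups beside these genes. The summed level of 7 osteoblast markers was 5635, 6067 and 11431 CPM in controls and 20299, 14781 and 20002 CPM with Ni. All 7 had a positive log2 fold change (median 1.13) and an unadjusted p under 0.05 (background 7.59%), and the 3 Ni libraries were above the controls, with control replicate 3 between them and the other controls. The 10 stromal markers had 8143, 8387 and 13050 CPM in controls and 18129, 14934 and 17930 CPM with Ni (8 of 10 positive, median 0.57). This is the order of libraries seen for Gpx7 and Me1, where control replicate 3 is the highest control and Ni replicate 2 the lowest Ni library. The order is not particular to them, as Gpx8, Ephx1 and Ugdh also had it. Control replicate 3 lay nearer to the Ni mean than to the other controls for 67.5% of all genes tested. The 14 macrophage markers overlapped in sum, from 26228 to 31170 CPM in controls and from 26311 to 27070 CPM with Ni, with 10 of 14 negative and a median of -0.17. The lowest were Tyrobp at -0.45, Fcer1g at -0.45, Itgam at -0.40 and Ptprc at -0.36. These were the 4 of the 14 with an unadjusted p under 0.05 in edgeR (background 5.83% for lower genes). The 4 positive markers were Mrc1 at 0.24, Cd68 at 0.05, Lyz2 at 0.02 and Csf1r at 0.01. Control replicate 3 was the highest control for these 4. For Tyrobp, Fcer1g, Itgam, Ptprc, Adgre1 and Mertk it was the lowest control, and for C1qa, C1qb, C1qc and Cd14 the middle one. It was also the lowest control for Sod1, Sod2, Gsr and G6pdx, the genes lower with Ni at an unadjusted p under 0.05. Lyz2 was the largest part of the sum, with 10328, 9616 and 15097 CPM in controls and 12188, 10801 and 12596 CPM with Ni.

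Of 7 osteoclast markers 4 were tested, and the sum of all 7 was 1136, 1338 and 657 CPM in controls and 671, 686 and 610 CPM with Ni. Acp5 held most of that sum, with 1013, 1190 and 417 CPM in controls and 481, 506 and 415 CPM with Ni. The 4 tested markers did not share a sign, with Acp5 at -0.90 and Mmp9 at -0.83, but Ctsk at 0.62 and Atp6v0d2 at 0.24. For 7 adipocyte markers the sum was 911, 846 and 580 CPM against 635, 495 and 651 CPM. Of the 6 tested, 3 were positive and 3 negative, with a median of 0.01. Lpl (-0.49) held most of the sum, with 797, 732 and 453 CPM in controls and 507, 380 and 522 CPM with Ni. Plin1 (1.52), Fabp4 (0.43) and Adipoq (0.16) were the positive ones. The 4 endothelial markers had 61.7, 71.2 and 43.1 CPM against 43.1, 45.4 and 40.7 CPM, with 2 positive and 2 negative. Pecam1 (-0.65) held most of that sum, whereas Emcn was at 0.58. The 7 neutrophil markers summed to at most 3.18 CPM in any library, with 3 of them at 0 throughout, and the 4 erythroid markers to at most 0.271 CPM, with 2 at 0. The part of the osteoblast, stromal, macrophage, osteoclast, adipocyte and endothelial levels in the differences of the antioxidant genes was not tested.

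**Figure D5:**
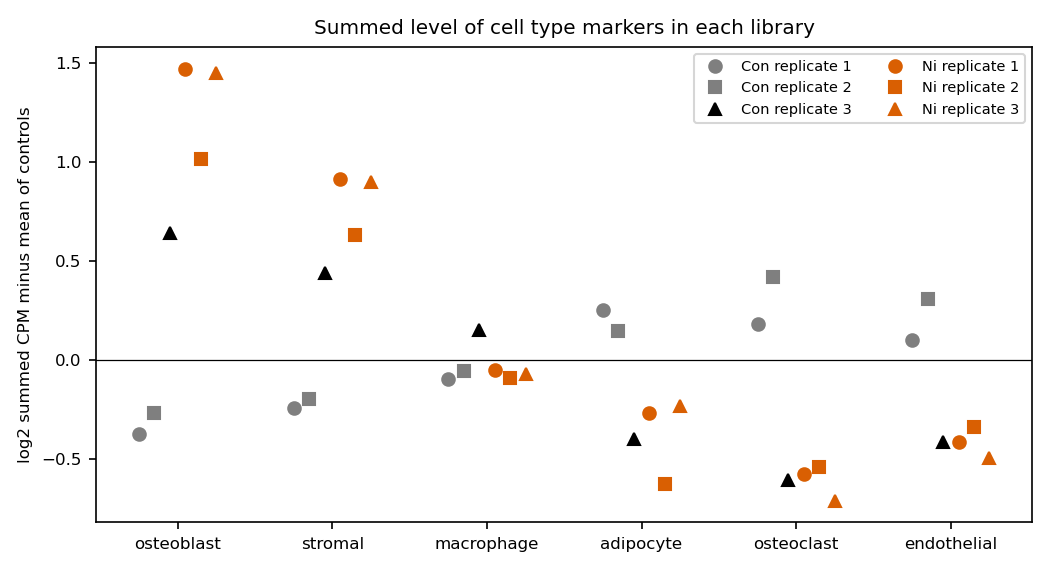
The log2 summed CPM of 6 marker lists in each library minus the mean of the 3 controls (y axis), with controls in grey or black and Ni libraries in orange. Osteoblast and stromal sums are higher in every Ni library, and control replicate 3 (black triangle) lies between them and the other controls.

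Overlapping genes limit a few counts, since strand was not stated for the counting. Exons of genes on the opposite strand cover 19.1% of the exon bases of Prdx5, 17.3% of Sqstm1, 15.4% of Gss, 13.6% of G6pdx, 11.5% of Prdx2 and 10.9% of Keap1, in GENCODE M21. Of Sod2, 21.0% of 50-base stretches occur in other genes. For Gpx7, Gpx8, Gsr and Mgst3 no stretch was shared and no exon overlapped another gene.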

How the data were processed

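The deposited counts are whole reads per gene without normalization, and the deposited FPKM values are these counts divided by gene length and by 1 factor per library (largest relative deviation 4.08e-08). The libraries were made with a NEBNext Ultra kit, and the genome is GRCm38 in the submitters' processing notes, while aligner, counter and strand setting are not given in the sources used here. The counts of 14624 genes kept by filterByExpr of edgeR 4.0.16 (R 4.3.3) were normalized by TMM and fitted with glmQLFit (robust, prior count 0.125) on all 6 libraries, then tested by glmQLFTest. Standard errors are the unshrunk coefficient over the root of F, and 95% intervals use the fit's degrees of freedom. The groups were compared without overlap on log2 CPM (prior count 2). DESeq2 1.42.0 and limma 3.58.1 on log2(FPKM + 1) and log2(FPKM + 0.1) were alternatives, as were other normalizations and filters, each library left out and a replicate block. The code was tested on simulated data. Libraries of 1 group differed beyond sampling noise (chi-square over its degrees of freedom from 4.56 to 47.8). Whether replicates were separate animals is not stated, so p-values measure the spread between these cultures. Intervals across 3 libraries limit the precision of small differences.

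All 40 genes are accounted for, with values per library for those at an unadjusted p under 0.05 and for the main NRF2 targets. From each further list, the genes named are the 5 with the largest changes at that threshold, and Hmox1, Nos2 and Txnip, except for 1 gene that is not reported here. Genes named among the markers, Gstm4, Gstm5, Gstz1, Rpia, Pgls, Rpe and H6pd, and Txn1, Sod3, Cat, Gpx1, Gpx3, Gstm1, Pgd and Prdx1 for values per library, were chosen after their values were seen. The members and lists were chosen with earlier results of these data known.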

Additional observations from a re-analysis of the deposited data

How the results depend on the processing

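The count of the 40 genes at an adjusted p under 0.05, 0 in edgeR, was 3 in DESeq2 (Gpx7, Me1 and Sod2), 7 with no filter on low counts (against 3.97% of all genes) and 4 with the replicate block (Gpx7, Gsr, Me1 and Sod2, against 2.15% of all genes). Across fits without one library it ranged from 0 to 12, the count at an unadjusted p under 0.05 from 5 to 17 and the count of genes whose groups do not overlap from 10 to 25, highest each time without control replicate 3. It was 17 genes apart without Ni replicate 2, though fewer libraries overlap less by construction. Other normalizations, limma on FPKM and a minimum of 10 counts in every library kept these counts within 1.5 times, and the median of the 40 genes stayed between -0.02 and 0.02. The correlations between deviations of libraries with 1 replicate number were 0.01, 0.26 and 0.14, not all above 0.1, and libraries numbered 2 and 3 but not 1 correlated best with their own number. The numbers were therefore not read as pairs.

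Of the 40 genes and those named from the pathway lists by rule, 8 changed sign under some setting, of which Slc7a11 was at -0.45 with all libraries and the others between -0.03 and 0.04. Gsto1, at 0.00, was -0.0004 with library totals only and -0.0014 with the replicate block, and Gpx4 was 0.0021 with no filter on low counts. When 1 of the 6 libraries was dropped at a time, values ranged over -0.0697 to 0.0325 for Nfe2l2, -0.0389 to 0.161 for Osgin1, -0.68 to 0.0874 for Slc7a11, -0.077 to 0.0658 for Gsto1, -0.0212 to 0.0715 for Prdx6, -0.0308 to 0.0309 for Gpx3, -0.0352 to 0.0292 for Gpx4, and -0.033 to 0.0137 for Hmox1. Depth limits Slc7a11, Nqo1, Nos2 and Chac1, each under 7 CPM in every library.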

Other observations

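Nnt, the mitochondrial transhydrogenase that makes NADPH from NADH, was almost silent in these cultures. The counts were 8, 5 and 6 for the controls, against 6, 7 and 15 for Ni, too few to pass the filter on low counts. Per gene length its level was 0.0523 ± 0.00875 FPKM in controls (SD, n = 3), beside 34.9 ± 1.03 FPKM for Idh2, another mitochondrial source of NADPH, chosen after its values were seen. Gpx2, the epithelial glutathione peroxidase, had 0 counts in every library.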
